A study of Mus musculus with 127 samples.

Results

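RGFP109, an inhibitor of histone deacetylases 1 and 3, was compared with its vehicle in cultured mouse striatal neurons that carried a huntingtin fragment of normal repeat length. The comparison took every 25Q neuron in the count table, 52 of the 127 cells held here: 23 neurons given RGFP109 and 29 given vehicle. Their raw counts were summed by treatment within each of the 3 labelled batches, so that the batch is the replicate and each treatment has 3 values. The RGFP109 sums hold 8, 4 and 11 neurons in batches 1, 2 and 3, and the vehicle sums hold 10, 4 and 15.

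Neurons came from the striatum of newborn (P0-P1) C57BL/6 mice, labelled wild type, and grew on small islands of cortical astrocytes. All of the 52 neurons, vehicle neurons included, had been infected with a lentivirus that carries a GFP fusion of exon 1 of human HTT with 25 glutamines (25Q-Htt), and the promoter of the virus is not given in the sources used here. RGFP109 was added at 100 nM from day 6 in vitro (DIV) and again every 3 days, and vehicle neurons received the same amount of DMSO on those days. Each neuron was recorded and then drawn into the patch pipette at DIV 15, a method called Patch-seq that reads the RNA of the recorded cell. The labels name no animal or culture within a batch, so variation between animals or cultures could not be estimated. The main fit takes out shifts shared by all sums of a batch. Its p-values rest only on how much the differences between groups vary over the 3 batches. That variation is estimated from all 12 sums of the fit, which include neurons outside this comparison.

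Histone deacetylases (HDACs) take acetyl groups off lysines of histones and other proteins. HDAC1, HDAC2 and HDAC3 are class I enzymes that act within corepressor complexes: Sin3, NuRD and CoREST hold HDAC1 and HDAC2, and the NCoR and SMRT complexes hold HDAC3. Most striatal neurons are inhibitory projection neurons that release GABA, which the enzymes GAD67 (Gad1) and GAD65 (Gad2) make from glutamate.

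The 6 sums held between 10428520 and 68851739 counts, and single neurons had between 1388846 and 6945819, with medians of 3821912 in the vehicle and 3785524 in the RGFP109 neurons. The reads carry no molecular identifiers. Intervals for shares of cells below treat the neurons pooled over batches as independent draws, so they cover counting error only. Levels are given as CPM, the count of a gene scaled to a common library total. Gad2 was at or above 100 CPM in all 29 vehicle and all 23 RGFP109 neurons, as was the synaptic gene Snap25 and the tubulin gene Tuba1a. Slc17a7 and Slc17a6, which mark glutamatergic neurons, had medians of 0 CPM in both groups and at most 34.3 CPM in any of the 52 neurons. Astrocyte markers, 20 genes of which 17 passed the filter on low counts, summed to between 34.4 and 9612 CPM per vehicle neuron (median 597) and between 53 and 6105 CPM per RGFP109 neuron (median 783), against a median of 29346 CPM in the 14 cultured astrocytes of the series. Neurons with at least 10% of that astrocyte level numbered 5 in the vehicle group and 2 in the RGFP109 group. The expression of the virus itself was not analysed here, so the label 25Q was not checked against the data.

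No gene passed the test between RGFP109 and vehicle. edgeR's quasi-likelihood test, with group and batch as terms and Benjamini-Hochberg adjustment, called 0 of 15091 genes (0%), and the adjusted p of every gene was 1. At an unadjusted p under 0.05 it held 381 genes (2.52%), of which 169 were higher (1.12%) and 212 lower (1.4%) with RGFP109. limma-voom also called 0 genes and held 677 (4.49%) at an unadjusted p under 0.05. DESeq2 called 143 genes (0.948%), 61 higher (0.404%) and 82 lower (0.543%), and held 1387 (9.19%). Of the 143, 1 cell held over 50% of the counts of all 52 neurons in 36 genes (25.2%), compared with 3.5% of all genes tested, and 89 had an unadjusted edgeR p under 0.05. The names and values that follow are therefore measured differences that did not pass the main test. The 3 RGFP109 sums lay above all 3 vehicle sums in 487 genes (3.23%) and below them in 535 (3.55%), 6.77% in all. A gene was higher in all 3 batches in 13.8% and lower in all 3 in 12.8% of the genes tested, and the median log2 fold change over all of them was 0.0021.

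The genes described first are the 10 protein-coding genes lower and the 10 higher with the smallest unadjusted p, among those with a mean of at least 10 CPM and the same sign in every batch, so their direction in the batches is part of how they were chosen. For 17 of the 20, RefSeq (GRCm38.p6) gives a promoter window, here the 250 bases before the transcript's start, and 14 of the 17 (82.4%) hold a GC box, GGGCGG or CCGCCC counted on either strand, a motif that Sp1-family factors can bind. Of the 7346 protein-coding genes with a window, tested here and with a mean of at least 10 CPM like the leading genes, 61.2% hold a GC box, with a median GC content of 60.4%. Over all 32817 windows of that length, whatever the level of the gene, the share was 32.7%. The difference between the 17 and the 7346 was not tested. Not all of the 17 windows lie just before the gene. That of Zbtb20 ends 371403 bases from the gene start in GENCODE's annotation, and that of Slc39a9 has 250 of 250 bases in annotated exons. These windows and that of Ptprs hold no GC box. Among windows with a GC box, that of Cers4 has 221 and that of Lgi1 151 of 250 bases in exons. Windows of 2 genes that were higher and 2 that were lower with RGFP109 are shown because the members of both directions hold the motif. Prokr2 (chr2:132385448-132385697, minus strand, 59.2% GC) and Pfkp (chr13:6648772-6649021, minus strand, 62.8% GC) were higher, and Ago3 (chr4:126429543-126429792, minus strand, 73.6% GC) and Washc3 (chr10:88200847-88201096, plus strand, 48.4% GC) were lower. At most 14 of the 250 bases lie in an exon of GENCODE's annotation, and capitals mark the GC boxes.
Prokr2: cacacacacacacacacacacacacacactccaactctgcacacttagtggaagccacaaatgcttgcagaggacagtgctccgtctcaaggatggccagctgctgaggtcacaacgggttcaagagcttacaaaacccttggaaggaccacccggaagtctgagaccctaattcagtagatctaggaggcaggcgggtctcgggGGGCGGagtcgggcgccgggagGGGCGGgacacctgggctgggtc
Pfkp: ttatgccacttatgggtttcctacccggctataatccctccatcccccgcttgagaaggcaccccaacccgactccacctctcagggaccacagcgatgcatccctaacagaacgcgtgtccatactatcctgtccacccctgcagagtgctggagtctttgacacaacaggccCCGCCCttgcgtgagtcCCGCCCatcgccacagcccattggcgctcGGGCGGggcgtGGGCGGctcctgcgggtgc
Ago3: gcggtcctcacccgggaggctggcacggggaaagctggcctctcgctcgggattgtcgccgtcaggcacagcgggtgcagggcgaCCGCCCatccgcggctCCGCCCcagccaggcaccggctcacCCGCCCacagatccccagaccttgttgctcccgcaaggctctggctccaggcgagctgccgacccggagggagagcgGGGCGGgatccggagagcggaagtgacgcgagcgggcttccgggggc
Washc3: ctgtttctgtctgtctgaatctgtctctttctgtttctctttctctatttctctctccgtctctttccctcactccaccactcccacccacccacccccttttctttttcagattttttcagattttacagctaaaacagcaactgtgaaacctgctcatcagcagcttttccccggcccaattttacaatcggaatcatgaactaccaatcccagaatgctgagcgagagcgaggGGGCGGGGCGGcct
The Ago3 and Pfkp windows hold 4 GC boxes each, and those of Prokr2 and Washc3 hold 2 each.

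Zbtb20, a zinc-finger transcriptional repressor of neural and glial development (chromosome 16, 42875881 to 43642602, plus strand, GRCm38), had the smallest p of all genes. Its level was 585, 757 and 317 CPM in the vehicle sums of batches 1, 2 and 3 and 136, 65 and 113 CPM in the RGFP109 sums. Every RGFP109 sum lay below every vehicle sum. The log2 fold change was -2.32 (SE 0.43, unadjusted p = 0.00036), a level 4.98-fold lower. It stayed between -2.80 and -1.78 when each batch was left out in turn. Zbtb20 shares exon sequence with the annotated gene Gm9968, and since the use of strand in counting is not given in the sources used here, reads of overlapping genes cannot be told apart.

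Twsg1, which codes for a secreted modulator of BMP signalling, was at 72.1, 136 and 55.8 CPM with vehicle and at 26.6, 19.2 and 8.77 CPM with RGFP109, a log2 fold change of -2.35 (SE 0.45). Ago3, an Argonaute protein that carries small RNAs, was at 47.7, 54 and 71 CPM with vehicle and at 3.42, 4.16 and 11.7 CPM with RGFP109, a log2 fold change of -3.24 (SE 0.74). In both genes the 6 sums did not overlap. Vehicle neuron 14 of batch 2 was the highest cell for Twsg1. Without it the mean of the 3 batch differences of Twsg1 in log2(CPM + 1) moved from -2.24 to -1.20, a value chosen for a look after seeing the data.

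The other 7 lower genes kept the same direction. Lgi1, a secreted protein of the synaptic cleft, was at 119.8, 288 and 172 CPM with vehicle and 59.8, 72.7 and 57 CPM with RGFP109 (log2 fold change -1.56, SE 0.41). Glce, an enzyme of heparan sulfate synthesis, was at 94.7, 279 and 113 CPM with vehicle and 26.3, 11.0 and 30.6 CPM with RGFP109 (log2 fold change -3.12, SE 0.86). Their sums did not overlap, and nor did those of Hddc2 (log2 fold change -1.62, SE 0.41) and of Washc3, a subunit of the WASH complex that builds actin on endosomes (-1.99, SE 0.57). Atp7a, a copper-exporting ATPase, was at 25.2, 39.2 and 6.64 CPM with vehicle and at 0.12, 0 and 0.081 CPM with RGFP109, where it had 10 CPM or more in 9 of 29 vehicle and 0 of 23 RGFP109 neurons. Its fitted value depends on the prior count and is not given as a fold. Nckipsd, a regulator of actin assembly (-2.88, SE 0.85), and Map2k1, the kinase MEK1 that activates ERK (-0.91, SE 0.27), were lower in each batch with sums that overlapped.

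Among the 10 higher genes, Prokr2 and Calb2 stood out by fold and Ncald by its level. Prokr2, a receptor for prokineticins, was at 0.29, 0.18 and 11.7 CPM with vehicle and at 399.6, 31.9 and 55.1 CPM with RGFP109. All 3 RGFP109 sums were above the vehicle sums (log2 fold change 6.82, SE 1.65). A single cell, RGFP109 neuron 1 at 3492 CPM, held 74.4% of the group's counts, and 12 of the 23 RGFP109 and 23 of the 29 vehicle neurons had none. Calb2, the calcium-binding protein calretinin, was at 1.21, 8.51 and 24.6 CPM with vehicle and at 150.1, 176 and 580.4 CPM with RGFP109 (log2 fold change 5.75, SE 1.52). Ncald, the calcium sensor neurocalcin delta, was at 69.6, 436 and 764 CPM with vehicle and at 442, 2115 and 1509 CPM with RGFP109, higher in each batch although the sums overlapped (log2 fold change 2.13, SE 0.54). Without RGFP109 neuron 9 of batch 2, at 7654 CPM, the mean batch difference of Ncald in log2(CPM + 1) moved from 1.96 to 1.41. Ncald shares exon sequence with Gm28221 and Gm49397, as Pfkp does with Pitrm1, Slc39a9 with Erh, Fam168b with Arhgef4 and Gm37127, Cers4 with Gm36956 and Vmn2r-ps89, and Lgi1 with Gm42723. Hddc2 shares it with n-R5s76. Among genes named below the same holds for Foxp1 (Gm20696), Ppp1r1b (1700003D09Rik), Penk (A830012C17Rik), Rbbp4 (Gm26722 and Sync) and Bdnf (Gm45346). It also holds for Slc32a1 (Gm14205), Slc1a2 (Gm13872), Prdx2 (Junb and Rnaseh2a) and Psmb7 (Nek6).

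A calcium sensor of the same family, Vsnl1 (visinin-like 1), was at 101, 278 and 243 CPM with vehicle and at 267, 684 and 412 CPM with RGFP109 (log2 fold change 1.17, SE 0.31). Cers4, a ceramide synthase, was at 77.9, 60.2 and 103 CPM with vehicle and at 163, 225 and 229 CPM with RGFP109, where the groups did not overlap (log2 fold change 1.37, SE 0.35). Fam168b (log2 fold change 2.06, SE 0.51), the zinc transporter gene Slc39a9 (2.37, SE 0.65) and the receptor phosphatase gene Ptprs (1.16, SE 0.32) also had sums that did not overlap. Without RGFP109 neuron 7, at 1163 CPM, the mean batch difference of Ptprs in log2(CPM + 1) moved from 1.14 to 0.70. Pfkp, the platelet isoform of the glycolytic enzyme phosphofructokinase (log2 fold change 1.00, SE 0.26), and Sccpdh (1.22, SE 0.32) were higher in each batch with sums that overlapped. As with the lower genes, the same sign in every batch was a condition of the choice and not a finding.

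**Figure D1:**
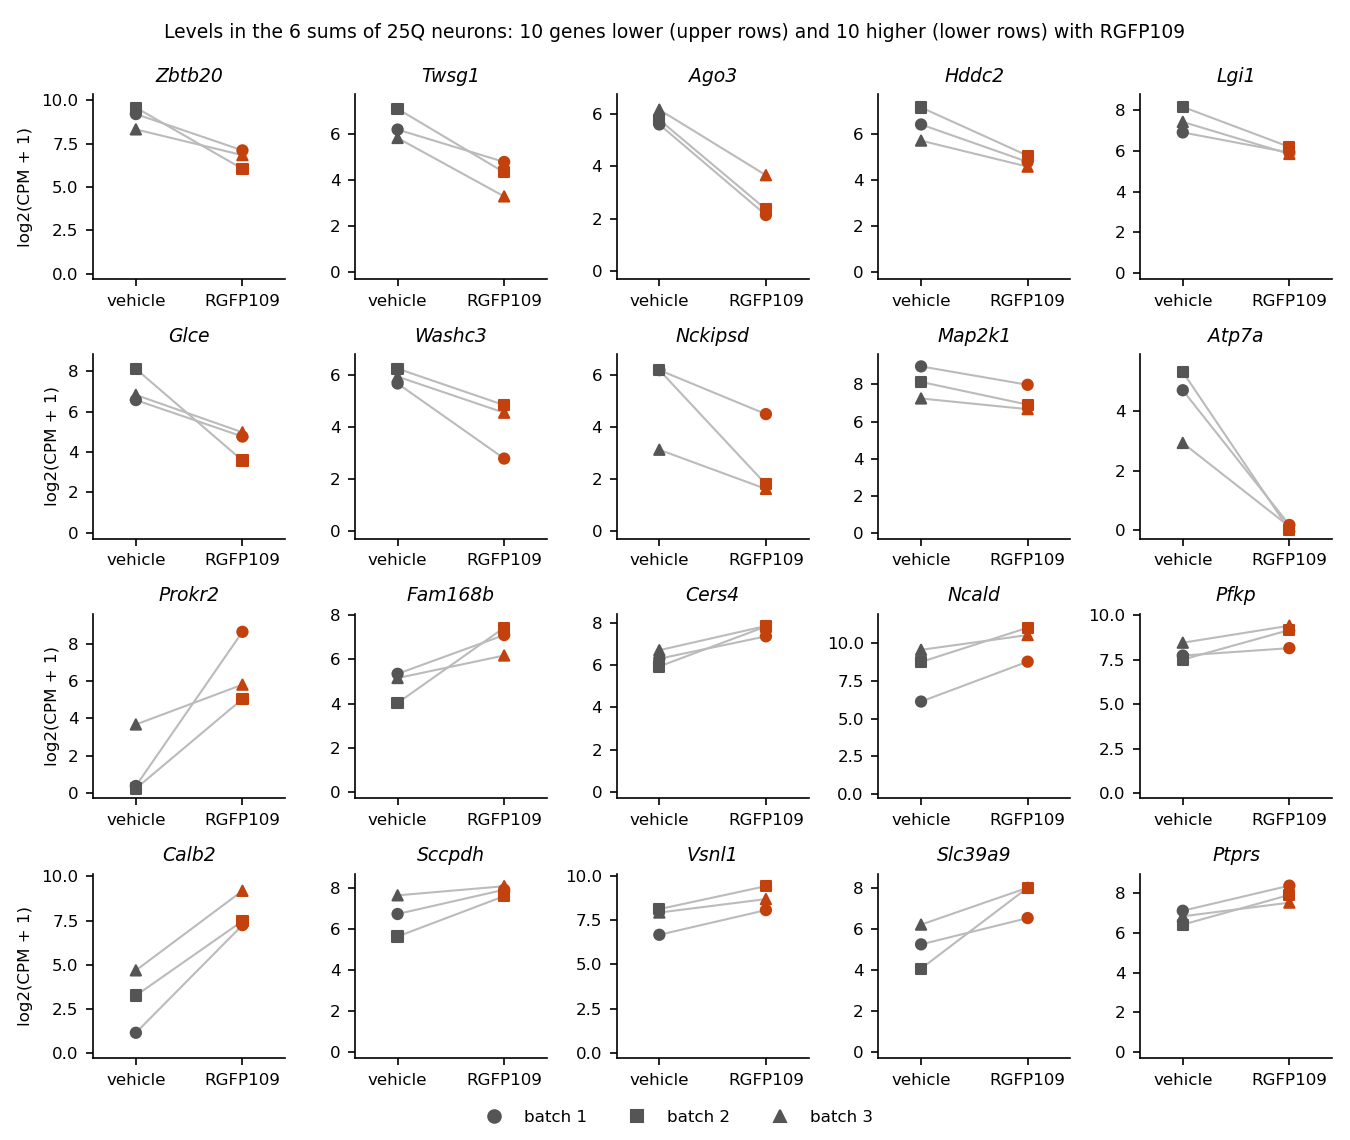
Levels of the 10 lower and 10 higher leading genes, as log2(CPM + 1) on the vertical axis, in the 3 vehicle sums (grey) and the 3 RGFP109 sums (orange), with a line joining the 2 sums of a batch. Zbtb20, Twsg1 and Ago3 lie lower with RGFP109 in every batch, and Cers4 and Calb2 lie higher, with no overlap of the groups.

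Under DESeq2, 9 of the 10 lower genes had adjusted p-values between 2.5e-05 and 0.048, the exception being Map2k1 at 0.084. Of the 10 higher genes, DESeq2 called Prokr2, Fam168b, Ncald, Calb2 and Slc39a9, with adjusted p-values between 0.00061 and 0.047, and did not call the other 5. For these genes the adjusted p over the remaining alternatives was between 0.66 and 1. They were chosen by a small edgeR p on the same sums, so the DESeq2 calls are not independent support. Over all genes tested DESeq2 called 0.948%.

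In single neurons the same genes varied widely within each treatment. Zbtb20 ranged from 1.41 to 2027 CPM (median 333) over the 29 vehicle neurons and from 0.23 to 738 CPM (median 60.1) over the 23 RGFP109 neurons. At or above 100 CPM were 22 of 29 vehicle neurons (75.9%, exact Clopper-Pearson 95% interval 56.5 to 89.7%) and 8 of 23 RGFP109 neurons (34.8%, 16.4 to 57.3%). By batch these were 9 of 10, 3 of 4 and 10 of 15 vehicle neurons, and 4 of 8, 1 of 4 and 3 of 11 RGFP109 neurons. The share was lower with RGFP109 in each batch. Neurons of 1 batch are not independent replicates, so these shares carry no test.

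Calb2 was found in a part of the neurons only. It had 0 counts in 15 of 29 vehicle and 4 of 23 RGFP109 neurons, and reached 100 CPM in 2 of 29 vehicle neurons (6.9%, exact interval 0.85 to 22.8%) and in 10 of 23 RGFP109 neurons (43.5%, 23.2 to 65.5%). The 2 vehicle neurons, 19 and 20, were in batch 3. In batch 2 the RGFP109 neurons were at 190, 5.71, 202 and 299 CPM. RGFP109 neuron 23 of batch 3, at 2888 CPM, held 56.4% of that group's counts. In batch 1, RGFP109 neuron 4 was at 1863 CPM and the next highest, neuron 7, at 14.7 CPM, so the difference of that batch rested on 1 cell. In contrast, Cers4 was spread over most cells, with a median of 41.9 CPM (0 to 332) in vehicle and 156 CPM (0.30 to 544) in RGFP109 neurons. Ago3 had a median of 48.8 CPM in vehicle and 1.52 CPM in RGFP109 neurons, and reached 100 CPM in 6 of 29 vehicle and 0 of 23 RGFP109 neurons (exact interval 0 to 14.8%).

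**Figure D2:**
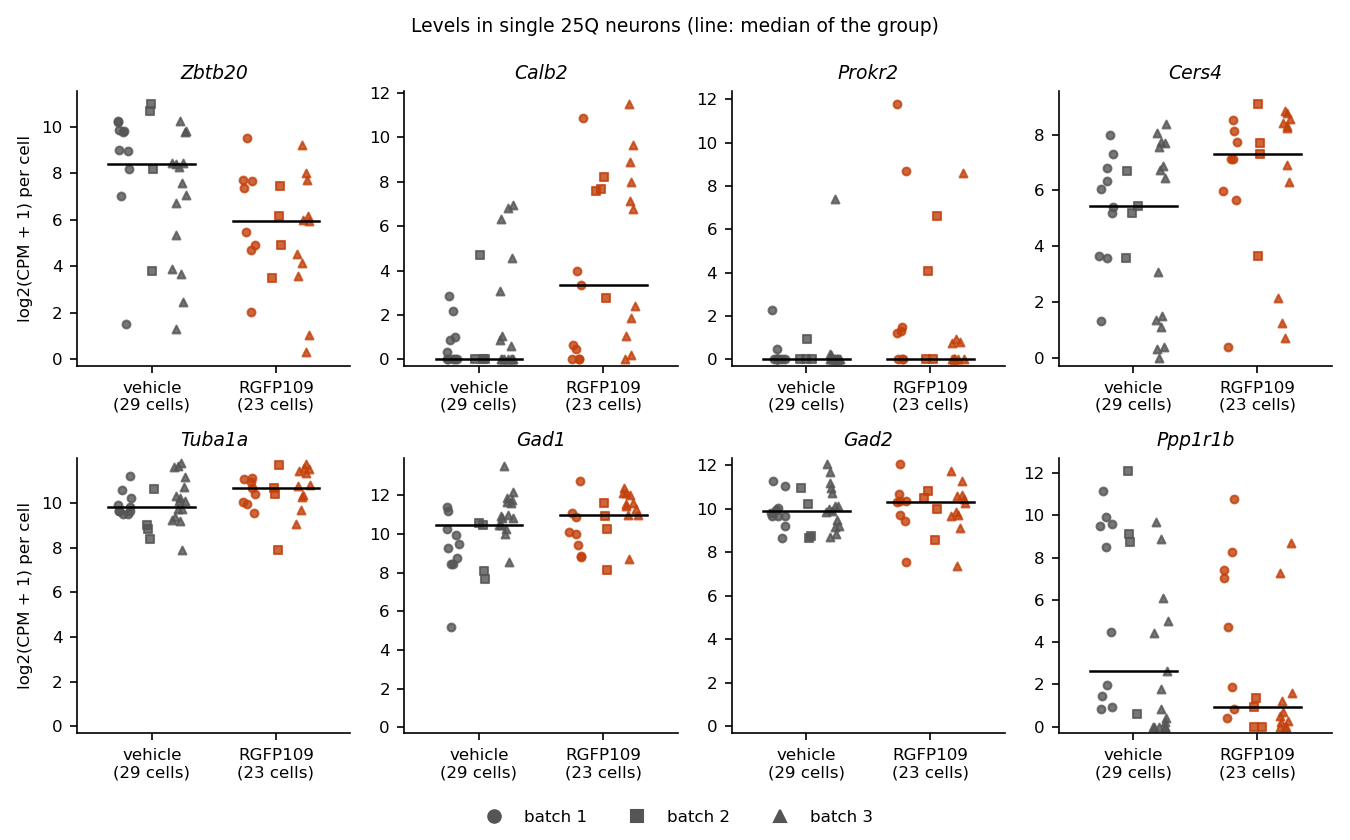
Level of 8 genes in each 25Q neuron, as log2(CPM + 1) on the vertical axis, for the 29 vehicle (grey) and 23 RGFP109 (orange) neurons, with the marker shape giving the batch and the line the median of the group. Gad2 and Tuba1a are at 100 CPM or more in every neuron, whereas Calb2, Prokr2 and Ppp1r1b are near 0 in many.

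The striatal projection neuron markers were lower, but the size rested on batch 2. Of 35 genes that mark these neurons or their development, 32 were tested, 25 were lower and 7 higher with RGFP109, and 0 passed the test. Over all genes tested 50.1% were higher. Of the 32, 14 were lower and 2 higher in all 3 batches, against 12.8% and 13.8% of all genes tested. The RGFP109 sums lay below all vehicle sums in 5 and above them in 1, against 3.55% and 3.23%. These counts carry no test. The median log2 fold change of the list was -1.34, and the batch medians in log2(CPM + 1) were -0.37, -3.30 and -0.01 in batches 1, 2 and 3. Without batch 2 the counts became 20 lower and 12 higher, with a median of -0.23. Batch 2 holds 4 neurons of each treatment.

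Ppp1r1b, which codes for the dopamine-signalling protein DARPP-32, was at 382, 1933 and 83.8 CPM with vehicle and at 278, 0.57 and 39.9 CPM with RGFP109 (log2 fold change -2.19, SE 1.65). At or above 100 CPM were 5 of 10, 3 of 4 and 2 of 15 vehicle neurons and 4 of 8, 0 of 4 and 2 of 11 RGFP109 neurons. The counts of neurons with this marker thus differed most in batch 2, and the part of this in the other differences was not tested. In a sum, fewer neurons of a type and less RNA per neuron cannot be told apart. Foxp1, a transcription factor of these neurons, was at 132, 375 and 81.8 CPM with vehicle and 102, 23.8 and 43.5 CPM with RGFP109 (log2 fold change -1.54, SE 0.61). Bcl11b, the factor CTIP2 that is needed for their maturation, was at 49, 118 and 45 CPM with vehicle and 27.1, 43.8 and 15.2 CPM with RGFP109, with sums that did not overlap (log2 fold change -1.32, SE 0.56). Penk, the precursor of enkephalin, had a log2 fold change of 0.31 with an SE of 3.00, and RGFP109 neuron 19 at 7037 CPM held 95.1% of the counts of its group.

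Zbtb20 and Ppp1r1b were also counted together. Of the 10 vehicle neurons with at least 100 CPM of Ppp1r1b, 9 had at least 100 CPM of Zbtb20, and of the 19 other vehicle neurons 13 did. With RGFP109 the counts were 4 of 6 and 4 of 17. The level of Ppp1r1b is that of 1 gene and does not name a cell type, and these counts carry no test. For Calb2 at the same level, no neuron in either group had both it and Ppp1r1b, and all 10 RGFP109 neurons with Calb2 were among the 17 without Ppp1r1b.

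**Figure D3:**
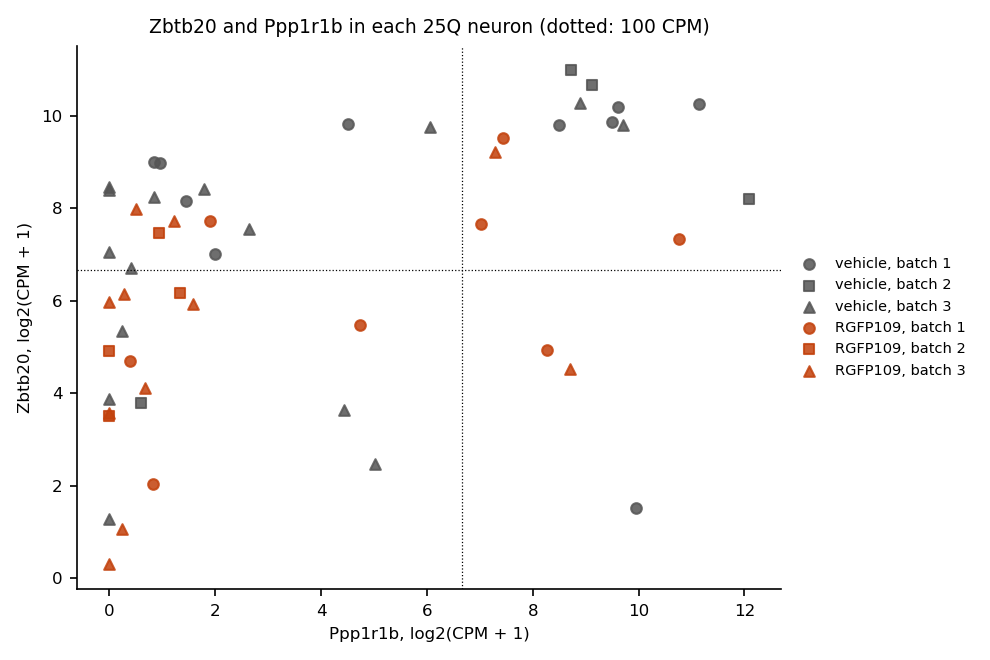
Zbtb20 (vertical axis) against Ppp1r1b (horizontal axis), both as log2(CPM + 1), in each of the 52 neurons, with dotted lines at 100 CPM. In the left part, under 100 CPM of Ppp1r1b, 13 of 19 vehicle and 4 of 17 RGFP109 neurons lie above the Zbtb20 line.

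The genes of the drug's targets did not pass the test. Hdac1 was at 10.9, 2.35 and 18.7 CPM with vehicle and 18.5, 24.1 and 22.8 CPM with RGFP109, higher in each batch (log2 fold change 1.24, SE 0.87). Hdac3 was at 128, 171 and 202 CPM with vehicle and 191, 151 and 299.9 CPM with RGFP109, lower in batch 2 and higher in the others (0.34, SE 0.28). Hdac2 was slightly lower in each batch (-0.27, SE 0.53). Of the class I genes 3 of 4 were higher, and of the class II and IV genes 7 of 7 were, with a median log2 fold change of 0.38, led by the tubulin deacetylase gene Hdac6 (0.84, SE 0.46). The batch medians of those 7 were 0.23, 2.00 and -0.10, only 1 of them was higher in all 3 batches, and without batch 2 the counts became 4 higher and 3 lower. Of the 4 class I genes 2 were higher without batch 2.

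Among 24 tested genes of the corepressor complexes, 15 were higher and 9 lower, with a median of 0.20, and without batch 3 the counts were 12 and 12 with a median of 0.002. Rbbp4, a histone-binding subunit shared by Sin3 and NuRD, was at 126, 66.5 and 137 CPM with vehicle and 174, 199.7 and 196 CPM with RGFP109, with no overlap (log2 fold change 0.87, SE 0.38). Kdm1a, the lysine demethylase LSD1 of CoREST, was higher in each batch (0.89, SE 0.48), and Chd4, the NuRD remodeller, was higher in batches 1 and 2 and lower in batch 3 (1.37, SE 0.80).

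Of 23 genes known to respond to HDAC inhibitors, 20 were tested, 13 were higher, 7 lower and 0 had an unadjusted p under 0.05. Over all genes tested 2.52% did. The median was 0.30 over the 3 batches, -0.06 without batch 2, and 0.07, 0.94 and 0.12 in the single batches. Cdkn1a, the cell cycle inhibitor p21, was at 46.3, 28.8 and 59 CPM with vehicle and at 42.5, 65.3 and 102 CPM with RGFP109, with sums that overlapped (log2 fold change 0.69, SE 0.52), and without RGFP109 neuron 14 its mean batch difference moved from 0.60 to 0.27. H1f0, a replacement linker histone, was at 13.6, 12.3 and 8.05 CPM with vehicle and at 16.6, 50.0 and 16.6 CPM with RGFP109, with sums that did not overlap (1.13, SE 0.86). Bdnf, a neurotrophin, had a log2 fold change of -1.98 with an SE of 4.10 and was near 0 in most neurons. For Bdnf a difference of the size seen in Cers4 was not detectable at this standard error. The endogenous Htt gene was at 31.8, 29.3 and 14.0 CPM with vehicle and 56, 41.3 and 18.4 CPM with RGFP109 (0.59, SE 0.60), and without RGFP109 neuron 22 its mean batch difference moved from 0.55 to 0.21.

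The 2 enzymes that make GABA differed from each other in pattern. Gad1 was at 882, 1186 and 3095 CPM with vehicle and at 1692, 1727 and 3511 CPM with RGFP109, higher in each batch although batch 3 of the vehicle lay above batches 1 and 2 of RGFP109. Its log2 fold change was 0.57 (SE 0.24, unadjusted p = 0.039). Gad2 was at 982, 1362 and 1528 CPM with vehicle and at 1364, 1142 and 1378 CPM with RGFP109, and its log2 fold change was 0.01 (SE 0.24). The difference between the 2 genes was not tested. Per cell, Gad1 had a median of 1415 CPM (35.6 to 11582) in vehicle and 2055 CPM (279.5 to 6758) in RGFP109 neurons.

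Over all 12 tested genes of GABA synthesis, packaging, uptake and breakdown, 3 were higher and 9 lower, with a median of -0.10. The direction was not stable: the batch medians were 0.28, 0.03 and -0.43, and without batch 3 the counts became 8 higher and 4 lower, with a median of 0.11. Without the batch term 7 of 12 were higher. Abat, which breaks GABA down, had a log2 fold change of -0.27 (SE 0.24), and Slc32a1, the vesicular GABA transporter, -0.20 (SE 0.97). Of 17 tested GABA receptor genes, 8 were higher and 9 lower, with a median of -0.14 that became 0.12 without batch 2. Kctd12, an auxiliary subunit of GABA-B receptors, was lower in each batch, at 30.5, 194 and 65.6 CPM with vehicle and 5.87, 86.7 and 43 CPM with RGFP109 (-1.34, SE 0.47). Wnk1, a kinase that controls chloride transporters, was also lower in each batch (-1.30, SE 0.44), and without vehicle neuron 10 its mean batch difference moved from -1.20 to -0.79. Kctd12 shares exon sequence with Gm26778.

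Genes of the neuronal cytoskeleton were mostly higher, with a median above 0 in every batch. Of 28 tubulin, stathmin and microtubule protein genes, 23 were higher and 5 lower, with a median of 0.40 and batch medians of 0.34, 0.68 and 0.25, and 9 were higher in all 3 batches while 0 were lower in all 3. Over all genes tested 13.8% were higher and 12.8% lower in all 3 batches. Without batch 2, 26 of the 28 were higher, with a median of 0.21. Tuba1a, the main alpha-tubulin of developing neurons, was at 984, 685 and 1570.5 CPM with vehicle and 1554, 1603 and 2214 CPM with RGFP109 (log2 fold change 0.76, SE 0.23). Stmn2, a stathmin that regulates microtubule growth in axons, was at 944, 1588 and 2300.4 CPM with vehicle and 1239.6, 3765 and 2867 CPM with RGFP109 (0.68, SE 0.28). In both genes RGFP109 was higher in each batch, and the groups overlapped.

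Pan-neuronal markers followed: 15 of 20 were higher, with a median of 0.34 and batch medians of 0.27, 0.41 and 0.14. Their summed level per cell had a median of 10432 CPM in vehicle and 11931 CPM in RGFP109 neurons. Gap43, a growth cone protein, was higher in each batch (0.82, SE 0.33), as was the splicing factor gene Rbfox1 (1.07, SE 0.45). Without RGFP109 neuron 11 the mean batch difference of Gap43 moved from 0.89 to 0.54. Sv2a, a glycoprotein from the separate list of synaptic vesicle and release genes, was higher in each batch too (0.77, SE 0.24). Of the 37 tested genes of that list 23 were higher, with batch medians of 0.47, -0.04 and 0.06. Without batch 1 the counts were 17 higher and 20 lower, with a median of -0.19. In 97Q neurons the median of the 28 cytoskeletal genes under RGFP109 was -0.22 and that of the 20 pan-neuronal markers -0.25. The 97Q batch medians were -0.24, -0.39 and 0.19 for the first list and -0.26, -0.73 and 0.29 for the second, so that batch 3 had the sign seen in 25Q neurons. The share of RNA from glia or from other neurons was not measured apart from these markers, and its part in these differences was not tested.

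Cholesterol synthesis and regulation genes were higher in 22 of 26, with a median of 0.59, but the batches differed, at -0.28, 0.67 and 0.79. Without batch 2, 16 of 26 were higher, with a median of 0.33. Dhcr7, the last enzyme of the pathway, was at 60.4, 114 and 63.7 CPM with vehicle and 125, 141 and 193 CPM with RGFP109 (log2 fold change 0.99, SE 0.32). In Dhcr7 and in the regulator Srebf2 (0.81, SE 0.52) the sums did not overlap.

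Immediate early genes, which neurons switch on with activity, were lower in 12 of 19, with a median of -0.65 and batch medians of 0.25, -1.42 and -0.63, so that batch 1 had the opposite sign. At an unadjusted p under 0.05 were 2 higher and 2 lower members, against 1.12% and 1.4% of all genes tested. Junb, a subunit of AP-1, was at 105, 151 and 84.4 CPM with vehicle and 66.5, 39.9 and 62.1 CPM with RGFP109, with no overlap (log2 fold change -0.97, SE 0.40), though it shares exon sequence with Prdx2, which was lower too (-0.60, SE 0.25). Homer1, a scaffold of metabotropic glutamate receptors, was lower in each batch (-1.09, SE 0.48). Jund, another subunit of AP-1, was higher in each batch, at 8.06, 9.04 and 0.57 CPM with vehicle and 68.6, 56.4 and 0.99 CPM with RGFP109, with sums that overlapped (2.13, SE 0.82), and it shares exon sequence with Gm11175. Arc, an activity-regulated synaptic protein, was also higher: it was at 0.098, 0.059 and 1.01 CPM with vehicle and at 12.0, 3.40 and 42.5 CPM with RGFP109, and is below the mean level set for named genes, so that it was chosen after its values were seen. Arc had 0 counts in 22 of 29 vehicle and 11 of 23 RGFP109 neurons, and RGFP109 neuron 17 at 402 CPM held 60.0% of that group's counts.

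Markers of other cells did not move in 1 direction. Of the 17 astrocyte markers tested, 11 were higher, with batch medians of -0.85, 3.50 and 0.72, and without batch 2 only 4 of 17 were. Their summed level was 2283, 460.2 and 1115 CPM in the vehicle sums and 1172, 1580.3 and 1314 CPM in the RGFP109 sums, and its part in the differences above was not tested. Gfap, the astrocyte filament protein, was at 9.13, 0 and 4.18 CPM with vehicle and 19.4, 10.3 and 37 CPM with RGFP109, with no overlap (log2 fold change 3.38, SE 2.04). Its median per neuron was 0.61 CPM in vehicle and 0.18 CPM in RGFP109 neurons, and RGFP109 neuron 14 held 59.1% of the counts of its group. Of the 17 markers 3 had RGFP109 sums above all vehicle sums and 0 had them below, against 3.23% and 3.55% of all genes tested. Slc1a2, the astrocytic glutamate transporter that some neurons also express, was at 22.5, 17.1 and 51 CPM with vehicle and 72, 168 and 95.2 CPM with RGFP109 (log2 fold change 2.26, SE 0.87). Without the neurons rich in astrocyte transcripts, edgeR again called 0 of 14983 genes and held 392 at an unadjusted p under 0.05. Interneuron markers summed to a median of 25.4 CPM in vehicle and 131 CPM in RGFP109 neurons, a sum that includes Calb2. Of these 17 markers 7 were tested, and 3 were higher and 4 lower. Their median log2 fold change was -0.88, with batch medians of 2.23, 0 and -3.03. The interneuron peptide Npy was near 0 in most neurons of both groups, and vehicle neuron 27 held 96.0% of its vehicle counts.

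**Figure D4:**
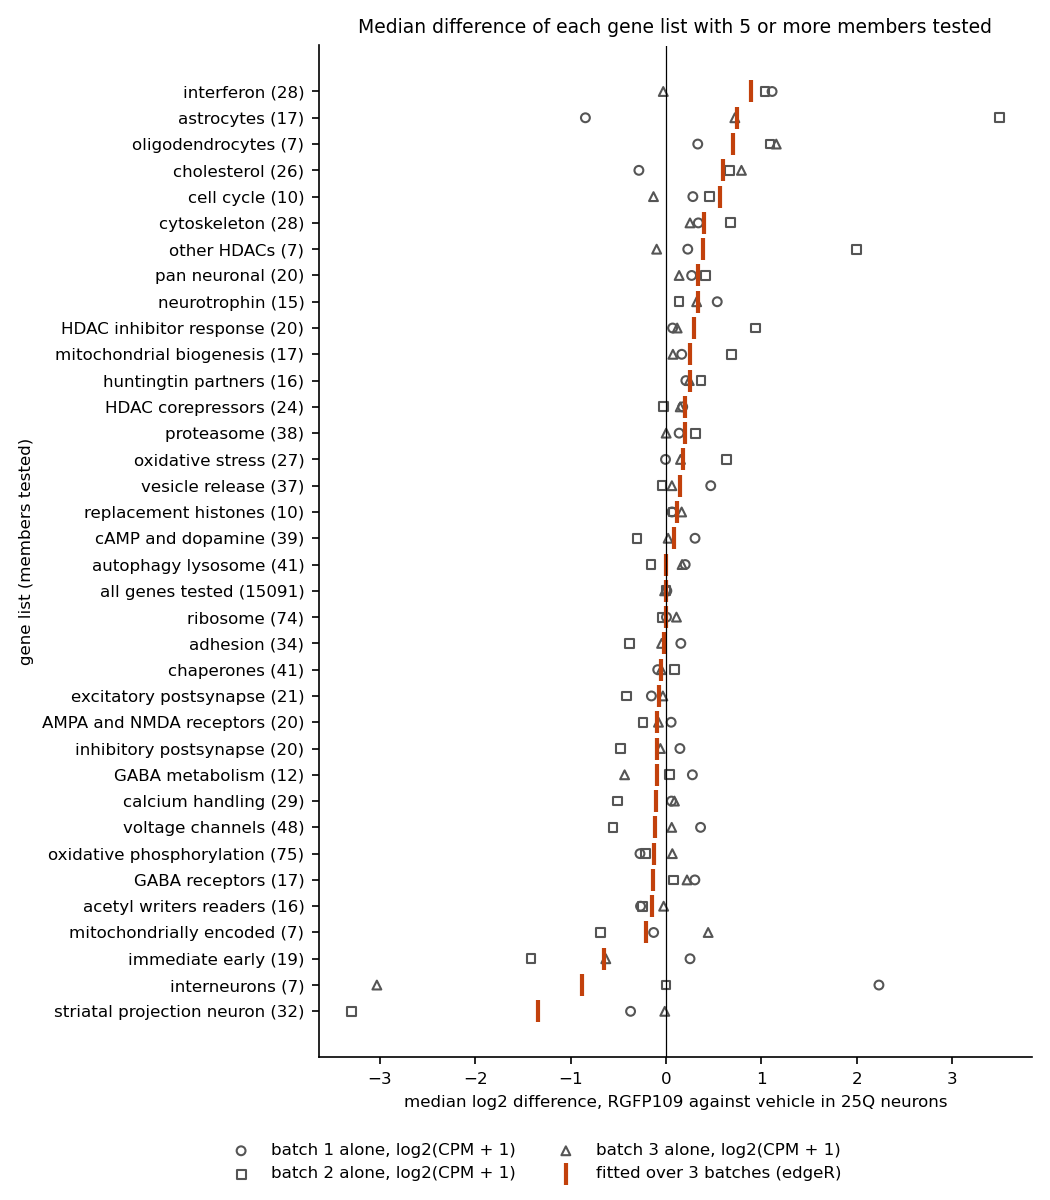
Median log2 difference between RGFP109 and vehicle (horizontal axis) for each gene list with at least 5 members tested and for all 15091 genes, fitted over the 3 batches (orange bar) and in each batch alone (open symbols). The cytoskeletal list lies above 0 in all 3 batches, whereas the striatal projection neuron list lies far below 0 in batch 2 and near 0 in batch 3.

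The same treatment was given to 97Q neurons, which carry the fragment with 97 glutamines: 26 with RGFP109 and 26 with vehicle, in the same 3 batches. The difference of the 2 drug effects was tested as an interaction in the same fit, and edgeR's quasi-likelihood test called 0 of 15091 genes, with 393 at an unadjusted p under 0.05 (2.6%). limma-voom called 0 genes and held 632 (4.19%), and DESeq2 called 69 (0.457%) and held 1351 (8.95%). The 2 comparisons share no cells. Across all genes tested, which are not independent replicates, the log2 fold changes in 25Q and 97Q neurons had a Pearson r of -0.005, and 49.7% had the same sign. Of the 20 leading genes 12 had the same sign in 97Q neurons, 5 of the 10 lower and 7 of the 10 higher ones.

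For Zbtb20, Twsg1 and Ago3, which were lower with RGFP109 in every batch of 25Q neurons, the fitted drug effect in 97Q neurons was close to 0 or above it. Zbtb20 was at 425, 238 and 146 CPM with vehicle and 248, 343 and 199 CPM with RGFP109 there, a log2 fold change of 0.05 (SE 0.41), and the drug effect in 97Q minus that in 25Q was 2.37 (SE 0.59, unadjusted p = 0.0027, adjusted p = 0.998 in edgeR). For Twsg1 the drug effect in 97Q neurons was 0.01 (SE 0.43) and for Ago3 0.45 (SE 0.70). Kctd12, lower with RGFP109 in 25Q neurons, was higher in each batch of 97Q neurons, at 3.26, 45 and 13.4 CPM with vehicle and 20.4, 133 and 44.2 CPM with RGFP109, and the difference of its drug effects was 3.32 (SE 0.68, adjusted p = 0.998 in edgeR). DESeq2 gave this difference in Kctd12 an adjusted p of 9.4e-05, while over the remaining alternatives the adjusted p was at least 0.977. Zbtb20, Twsg1, Ago3 and Kctd12 were named for a small p in 25Q neurons, and that drug effect enters the difference. The p-values of the difference are therefore not independent of the choice. Of the 10 leading lower genes 5 were lower in 97Q neurons too, among them Washc3 (-1.11, SE 0.55).

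Vsnl1, Cers4 and Prokr2 were higher with RGFP109 in both backgrounds. In 97Q neurons Vsnl1 was at 52.6, 74.2 and 138 CPM with vehicle and 123, 222 and 209 CPM with RGFP109 (log2 fold change 1.09, SE 0.31). Cers4 was at 73.9, 58.8 and 149 CPM with vehicle and 97.3, 186 and 237 CPM with RGFP109 there (0.91, SE 0.35), higher in each batch. Prokr2 was low in 97Q neurons, at 0.050, 0 and 0.045 CPM with vehicle and 2.70, 0 and 7.71 CPM with RGFP109. Of the 15091 genes tested, 24 had an unadjusted p under 0.05 in both backgrounds. Of these 24, 11 (45.8%) had the same sign in both, against 49.7% of all genes tested. Vsnl1, Cers4 and Prokr2 were among the 11.

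**Figure D5:**
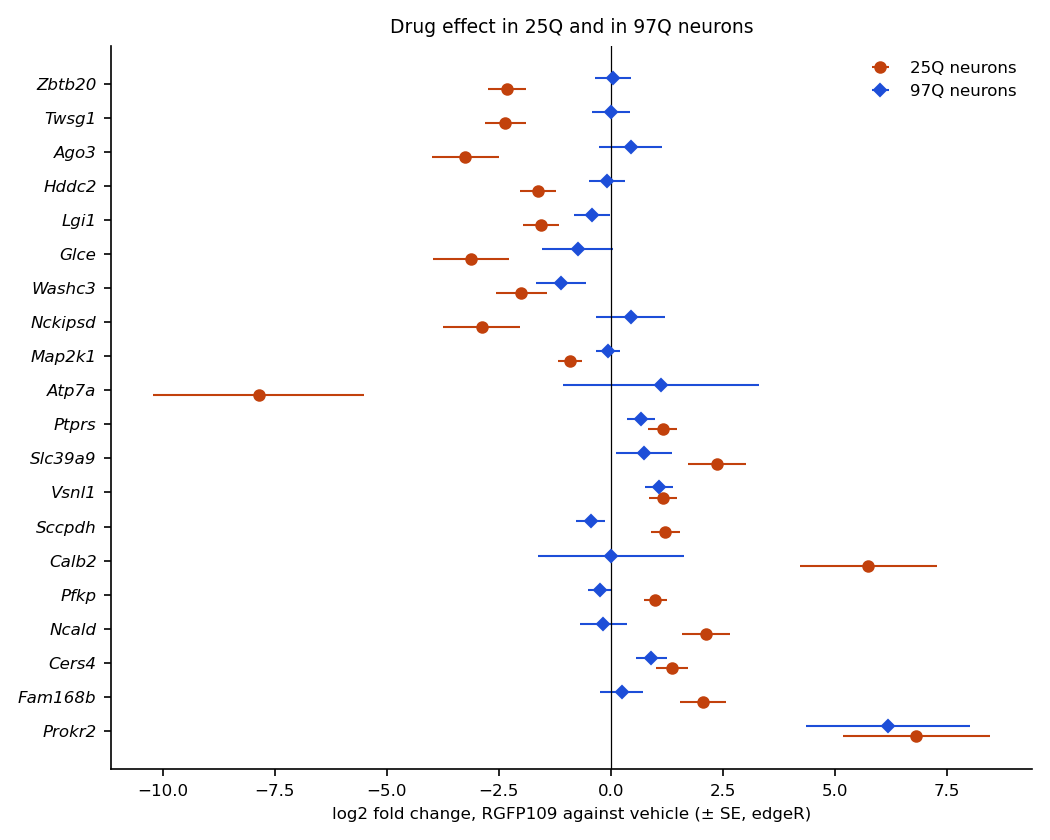
Log2 fold change of RGFP109 against vehicle (horizontal axis, with its SE as the bar) in 25Q (orange circles) and 97Q (blue diamonds) neurons for the 20 leading genes, which were chosen on the 25Q values. For Zbtb20 the values are -2.32 and 0.05, and for Vsnl1 they are 1.17 and 1.09.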

How the data were processed

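Single neurons were sequenced from SMARTer cDNA and Nextera XT libraries. Counts per gene were deposited by the authors, who per the submitters' processing notes used FastQC, Trimmomatic 0.36, STAR 2.5 and HTSeq 0.9.1 with GRCm38 (mm10); the strand setting is not given in the sources used here. Of 53465 gene IDs, 53360 matched a symbol in GENCODE M21, also the source of coordinates. Counts of the 104 neurons in the 25Q and 97Q groups were summed by group and batch into 12 sums. Genes passing filterByExpr and detected in at least 20% of these neurons, 15091 in all, were fitted in edgeR 4.0.16 (robust quasi-likelihood, TMM, terms group and batch; 6 residual degrees of freedom; adjusted p threshold 0.05); the biological coefficient of variation was 0.928. CPM of sums use TMM-scaled library sizes, and CPM of cells use total counts. Single-batch differences are of log2(CPM + 1).

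The labels name the batch of every cell. Correlations between deviations of same-batch sums were 0.155 to 0.229, 0.062 to 0.133 and 0.252 to 0.325 in batches 1, 2 and 3, and at most 0.095 between batches. No 2 of the 52 neurons were alike beyond r = 0.855 in log2(count + 1). Besides the 20 leading genes, up to 3 members of each of 39 gene lists, with the smallest p and a mean of at least 10 CPM, and 17 set genes could be named. The members and lists were chosen with earlier results of these data known. The code was tested on simulated data. Alternatives were DESeq2 1.42.0, limma-voom 3.58.1, other filters and scaling, no batch term, each batch left out, thinned cells, fewer neurons and the 6 sums of 25Q neurons alone. Values of some genes the rule names are not reported here.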

Additional observations from a re-analysis of the deposited data

How the results depend on the processing

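The limits of these data are 3 batches, 4 neurons of each treatment in batch 2, and the spread between sums. The biological coefficient of variation was 0.928, and its part in the absence of calls was not tested. Under DESeq2 the count of genes between RGFP109 and vehicle in 25Q neurons went from 0 to 143, and that of genes whose drug effect differed between 97Q and 25Q neurons went from 0 to 69; the cause was not tested. The other 11 alternatives for the first comparison and the other 10 for the second called 0 genes. In the first, genes at an unadjusted p under 0.05 ran from 242 of 14631 to 781 of 37630. The 242 came from the 6 sums of 25Q neurons alone, and the 781 from the fit with no filter on low values. The main fit held 381 of 15091 (2.52%), and limma-voom held 677 of 15091 (4.49%). The fit of the 6 sums of 25Q neurons alone holds no 97Q sums and gives only the first comparison. Leaving out 1 batch in turn also called 0 (from 0 to 0). With no replicate block, the fit without the batch term called 0 of 15091 genes in each comparison, with 254 and 285 at an unadjusted p under 0.05.

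Of 888 values, 74 genes under 12 alternatives, 16 passed an adjusted p of 0.05, all under DESeq2, and 9 had the opposite sign, in 3 genes. Bdnf was at 0.44 without the batch term, 0.89 with only the 6 sums of 25Q neurons, and between -5.97 and 3.05 with 1 batch left out, the latter without batch 3. Gad2 was at -0.055 without neurons rich in astrocyte transcripts and between -0.21 (without batch 1) and 0.16 with 1 batch left out. Penk was at -3.17 in limma-voom, -0.69 without the batch term, -3.41 with only the 6 sums, and between -5.10 (without batch 3) and 1.38 with 1 batch left out. For these the cause was not tested. Of 468 list medians 42 moved by over 1 SD of the batch medians. Leaving out the cell of highest CPM, an alternative chosen after seeing the data, turned the sign of the mean batch difference in 2 genes, among them Gad2 (0.02 to -0.11).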

Other observations

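Some gene groups outside the comparisons above differed by batch. Interferon-induced genes were higher with RGFP109 in 19 of 28, with a median log2 difference of 0.89 and batch medians of 1.11, 1.04 and -0.03. Among them B2m, the light chain of MHC class I, was at 663, 191 and 437 CPM with vehicle and 819, 627 and 704 CPM with RGFP109 (log2 fold change 0.81, SE 0.55), higher in each batch. Without RGFP109 neuron 5 its mean batch difference moved from 0.89 to 0.54. Ifit3, an interferon-induced protein, was also higher in each batch (2.36, SE 1.48). None of these genes passed the test, and 0 of the 28 had an unadjusted p under 0.05 in edgeR. Over all genes tested 2.52% did.

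Of 74 ribosomal protein genes 36 were higher, with a median of -0.01. Of 75 nuclear genes of oxidative phosphorylation 28 were higher (37.3%, against 50.1% of all genes tested), with a median of -0.13, and without the neurons rich in astrocyte transcripts 45 of 75 were higher, with a median of 0.04. Proteasome genes were higher in 25 of 38, with a median of 0.20, led by Psmb7, a catalytic subunit of its core (0.79, SE 0.27). Prkaca, the catalytic subunit of protein kinase A, was at 13.8, 11.8 and 9.21 CPM with vehicle and 77, 104.1 and 18.3 CPM with RGFP109, with no overlap (2.08, SE 0.62). Prdx6, a peroxiredoxin, was at 824, 158 and 316 CPM with vehicle and 1045, 1893 and 691 CPM with RGFP109, higher in each batch (1.62, SE 0.62).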
